A study of Bos taurus with 6 samples.

Results

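The genes described here encode the proteins that copy DNA and supply its building blocks: the origin recognition complex (ORC), the licensing factors, the MCM helicase, CDC45 and GINS, the CDC7 kinase, the replicative polymerases, the clamp and its loader, RPA, the enzymes that join Okazaki fragments, the makers of deoxynucleotides, the histone chaperones behind the fork and topoisomerase II alpha. They were chosen by name, with earlier results of these data known. Of the 53 listed genes 52 had a row under that symbol among 26773 transcript clusters. Each had 1 transcript cluster, the probe group that stands for a gene on this array. RFC1 was not analysed here. RNA came from 6 cultures of primary bovine granulosa cells (GC), the somatic cells that line the ovarian follicle and make estradiol, and each culture was hybridized to 1 Bovine Gene ST array. In 3 cultures the cells were plated at normal density and in 3 at high density, and all 6 were kept for 9 days in serum-free alpha-MEM with FSH, IGF-1 and androstenedione. The GC preparations were pools from follicles of many abattoir ovaries of undefined cycle stage, so no culture stands for 1 animal, and the labels do not say whether the cultures of a density shared a pool. The comparison asks how transcripts of the replication machinery differed between the plating densities after the same culture time.

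DNA replication is prepared before S phase, when ORC, CDC6 and CDT1 load the MCM2 to MCM7 ring onto origins. In S phase the kinase CDC7 with its activator DBF4 turns the ring, joined by CDC45 and the GINS complex, into a running helicase. Primase and polymerase alpha start each strand, polymerases delta and epsilon extend it on the PCNA clamp, and ribonucleotide reductase and thymidylate synthase deliver the nucleotides. Many of these genes are classical E2F targets and are transcribed most strongly in cycling cells, and GC are the cells whose proliferation drives follicle growth until luteinization.

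Values are RMA signals on the log2 scale as the authors deposited them, and differences are high minus normal density, tested with limma over all transcript clusters with Benjamini-Hochberg adjustment. A gene is termed called when its fold change exceeded 1.5 in size and both its p-value and its FDR were below 0.05, the thresholds of the study's methods. Errors of group means are SD (n = 3) and those of differences are standard errors (SE). The background level used here is 4.62, the 95th percentile of the 82 reporter control rows. Precision is limited by having 6 arrays, and the smallest two-sided p of an exact permutation test is 0.1 here.

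The array medians lay between 4.34 and 4.43, and high density replicate 2 stood apart from the other high density cultures, as it gave the middle of their 3 values for 14.5% of the transcript clusters above the background level and the highest or lowest for the rest. Of the granulosa markers 12 of 12 were above the background level at one density or both, and their summed linear signal was 6714 to 7309 per culture at normal and 5915 to 6150 at high density. Of them 5 were called lower, CYP19A1 (−2.80), FSHR (−2.21), INHA (−2.16), INHBA (−1.37) and FOXL2 (−0.65), and HSD17B1 (1.26) was called higher. NR5A2 (0.41) and CYP11A1 (0.26) passed the FDR in the higher direction with a fold change below the threshold. The other 4 granulosa markers, AMH, AMHR2, NR5A1 and GJA1, did not pass it. In contrast, 0 of 10 leukocyte, 0 of 6 red blood cell and 1 of 8 endothelial markers were above background. Their summed linear signals per culture were 100.1 to 103.4 at normal and 98.2 to 112.8 at high density for leukocytes, 42.7 to 44.0 and 43.4 to 50.4 for red blood cells and 92.3 to 97.8 and 101.5 to 107.6 for endothelial cells. Of the theca markers 2 of 5 were above background, and their sum moved from between 254.2 and 286.3 to between 586.6 and 693.4. That rise lay in INSL3, at 7.20 and 9.02, while CYP17A1, the enzyme that defines theca cells, was below background at 2.93 and 2.92. NR2F2, the other theca marker above background, was at 6.47 and 6.40 and did not pass the FDR (−0.07). LHCGR, the LH receptor, was called lower, at 4.04 and 2.84 (−1.20, adjusted p = 3.23e-04), with both means below background. The cells had been aspirated with the follicular fluid, free or loosely attached, a step meant to leave the theca layer behind. The part of the granulosa and theca marker changes in the values below was not tested.

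Across the 52 genes, transcripts of the replication machinery were lower at high density. Of these genes 16 were called lower and 1, the GINS subunit GINS4, was called higher, against 3.51% and 3.97% of all transcript clusters. Among the 13077 transcript clusters with a mean above the background level at one density or both, 5.86% were called lower and 6.95% higher. Of the 52 genes 46 were above it in this sense, and 2 of the 16 called lower, ORC1 and CDC6, were not. A further 14 genes passed the FDR in the lower direction and 1, POLD2, in the higher direction with a fold change below the threshold, which gives 30 lower and 2 higher at any fold against 10.4% and 8.64% of all. Together 32 of 52 genes passed the FDR, against 19.1% of all transcript clusters and 4171 of the 13077 above background. Of those 13077, 2422 passed it in the lower and 1749 in the higher direction. The other 20 genes did not, with differences between −0.54 and 0.08. Without high density replicate 2, 18 genes were called and 37 passed the FDR, and without normal density replicate 3, 20 passed the FDR.

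The median difference over the 52 genes was −0.40, against 0.02 over all transcript clusters and −0.05 over those above background. The difference was below 0 for 48 genes (92.3%), against 46.4% of all transcript clusters and 57.5% of those above background. The high density cultures lay wholly below the normal density cultures for 39 genes and wholly above for 2, and for 11 genes the groups overlapped. Of all transcript clusters 19.5% lay wholly below and 17.8% wholly above. Of the 13077 above background, 4283 lay wholly below and 2885 wholly above. In bulk RNA, fewer cells in S phase and less RNA per cell cannot be told apart.

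**Figure D1:**
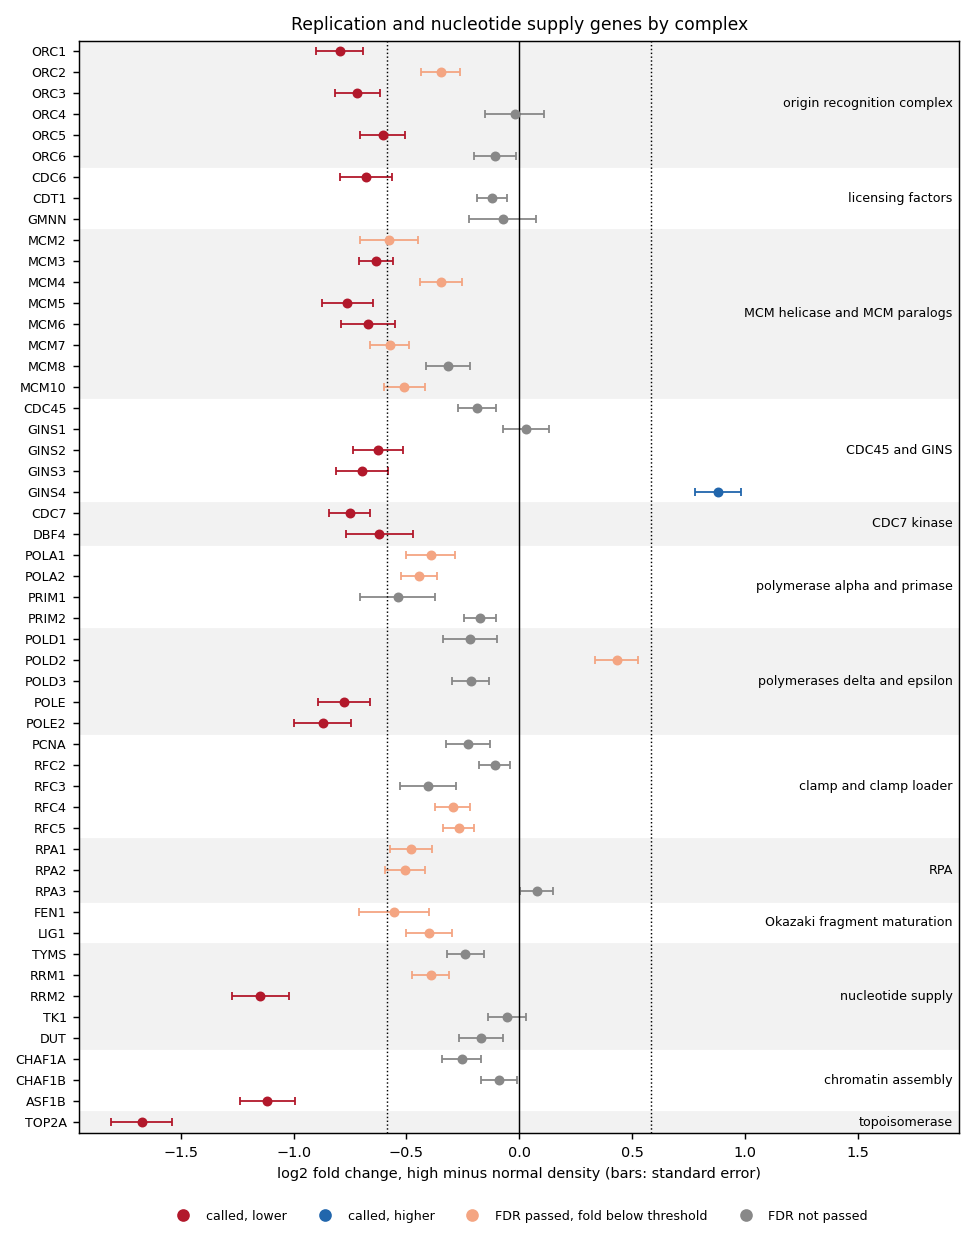
Log2 fold changes (high minus normal density, x axis) of the 52 genes, grouped by complex, with standard errors as bars and the fold threshold as dotted lines. TOP2A at −1.67, RRM2 at −1.15 and ASF1B at −1.12 lie farthest to the left, and GINS4 at 0.88 and POLD2 at 0.43 are the genes that passed the FDR on the right.

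The genes that fell most act at different steps. TOP2A, the topoisomerase that untangles replicated DNA and also condenses mitotic chromosomes, had signals of 7.54, 7.62 and 7.71 at normal density and of 5.71, 6.24 and 5.90 at high density. The ranges of the densities were far apart, and the fall was −1.67 (SE 0.13, adjusted p = 2.38e-04), a 3.19-fold decrease. RRM2, the subunit of ribonucleotide reductase whose level follows S phase, was measured at 7.21, 7.28 and 7.46 and at 6.05, 6.43 and 6.04. All high density cultures were lower, by −1.15 on average (SE 0.13, adjusted p = 9.24e-04). ASF1B, a histone H3-H4 chaperone of proliferating cells, had 6.46, 6.73 and 6.71 against 5.28, 5.62 and 5.63, again without overlap, a difference of −1.12 (SE 0.12, adjusted p = 9.23e-04). Both means of these 3 genes were above the background level.

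**Figure D2:**
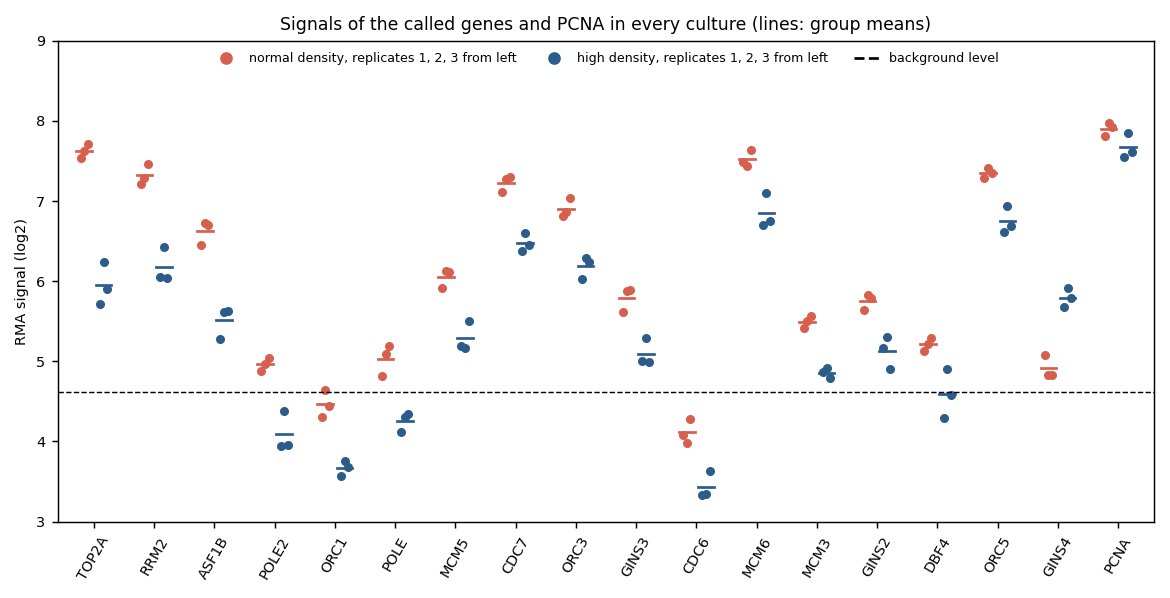
RMA signals (log2, y axis) of the 17 called genes and PCNA in each culture, with lines for group means and a dashed line at the background level of 4.62. In the 16 genes that fell, the high density points lie below all normal density points, GINS4 shows the opposite order, and the PCNA points of the densities overlap.

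Within the origin recognition complex, which marks replication origins, 3 of 6 subunits were called lower, 1 passed the FDR only and 2 did not pass it. ORC1, the subunit whose amount cycles, had signals of 4.31, 4.65 and 4.44 at normal and 3.57, 3.76 and 3.68 at high density, a difference of −0.80 (SE 0.10, adjusted p = 0.00191). Only its normal density replicate 2 exceeded the background level, so the fold change may be understated. ORC3 was at 6.81, 6.86 and 7.03 against 6.02, 6.29 and 6.24, and ORC5 at 7.29, 7.41 and 7.35 against 6.61, 6.94 and 6.69. Neither overlapped, and their differences were −0.72 (SE 0.10) and −0.61 (SE 0.10). The ORC5 fold change lay close to the threshold, and it was not called without normal density replicate 2 (−0.57), high density replicate 1 (−0.54) or high density replicate 3 (−0.58). ORC2 passed the FDR at −0.35, while ORC4 (−0.02, 95% interval −0.33 to 0.29) and ORC6 (−0.11, −0.32 to 0.11) did not pass it. The ORC6 means, 4.66 and 4.55, lay around the background level, so its difference may be understated.

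Of the licensing factors only CDC6, the ATPase that loads MCM rings with ORC, was called lower. Its signals were 4.08, 3.98 and 4.28 at normal and 3.33, 3.34 and 3.63 at high density (−0.68, SE 0.11, adjusted p = 0.0061). The densities did not overlap, but all of these values lie below the background level. CDT1, the partner of CDC6 in loading, differed by −0.12 (95% interval −0.28 to 0.04), and GMNN (geminin), the inhibitor of CDT1, by −0.07 (−0.42 to 0.28). The means of both genes were below background at both densities. The CDT1 values of the densities did not overlap, while those of GMNN did.

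All 6 subunits of the MCM2 to MCM7 ring, the core of the replicative helicase, passed the FDR in the lower direction, and 3 of them were called. MCM5 had signals of 5.91, 6.13 and 6.12 at normal and 5.20, 5.17 and 5.50 at high density, MCM6 of 7.49, 7.43 and 7.63 against 6.70, 7.09 and 6.75, and MCM3 of 5.41, 5.51 and 5.56 against 4.87, 4.92 and 4.79. These falls were of similar size, −0.76 (SE 0.11), −0.67 (SE 0.12) and −0.64 (SE 0.07), with adjusted p from limma of 0.00343, 0.00761 and 0.00124. MCM2 (−0.58, SE 0.13) and MCM7 (−0.57, SE 0.09) stood just under the fold threshold of 0.58 on the log2 scale and MCM4 at −0.35 (SE 0.09). None of the 6 genes overlapped between densities. Of the 13077 transcript clusters above background, 4283 lay wholly below at high density and 2422 passed the FDR in the lower direction. The calls of MCM2 and MCM7 turned on single cultures: MCM2 was called without normal density replicate 1 (−0.63), high density replicate 1 (−0.66) or high density replicate 3 (−0.62), and MCM7 without normal density replicate 1 (−0.59), normal density replicate 3 (−0.61) or high density replicate 3 (−0.64). MCM10, which helps to activate the helicase but is no part of the ring, passed the FDR at −0.51 (SE 0.09), and MCM8, a paralog that acts in recombination, did not (−0.32, adjusted p = 0.0608), with both means below background.

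The helicase partners went in opposite directions. GINS4 (SLD5), a subunit of the GINS tetramer, was the only gene called higher, with signals of 5.08, 4.83 and 4.83 at normal and 5.67, 5.91 and 5.79 at high density. Every high density culture exceeded every normal density culture, by 0.88 on average (SE 0.10, adjusted p = 0.00109), and the rise was called with any culture left out (0.82 to 0.96). Its partners GINS2, at 5.65, 5.83 and 5.78 against 5.17, 5.30 and 4.91, and GINS3, at 5.62, 5.87 and 5.89 against 5.002, 5.29 and 4.99, were called lower, by −0.63 (SE 0.11) and −0.70 (SE 0.11). GINS2 was not called without high density replicate 3 (−0.52). GINS1 differed by 0.03 (95% interval −0.21 to 0.27), so that the 4 GINS transcripts showed 2 falls, 1 rise and 1 gene that did not pass the test. CDC45 differed by −0.19 (−0.39 to 0.01), with means of 4.80 and 4.61. Its high density mean was just below the background level, so this difference may be understated.

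Both parts of the kinase that fires origins were called lower. The catalytic subunit CDC7 had signals of 7.11, 7.28 and 7.30 at normal and 6.38, 6.60 and 6.45 at high density (−0.75, SE 0.09, adjusted p = 0.00134). Its activator DBF4 was at 5.13, 5.22 and 5.29 against 4.29, 4.91 and 4.58 (−0.62, SE 0.15, adjusted p = 0.0261). Neither overlapped, but the high density cultures of DBF4 were spread widely, with an SD of 0.31, and around the background level. Of the 6 fits that left out 1 culture, the DBF4 call held in that without high density replicate 2 (−0.78). It was lost without normal density replicate 1 (−0.66, adjusted p = 0.0633), 2 (−0.62, adjusted p = 0.0803) or 3 (−0.58, adjusted p = 0.0926) and without high density replicate 1 (−0.47) or 3 (−0.61, adjusted p = 0.0770).

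Among the listed polymerase genes, only POLE and POLE2 of the leading-strand enzyme, polymerase epsilon, were called. POLE, the catalytic subunit of polymerase epsilon, had signals of 4.82, 5.09 and 5.19 at normal and 4.12, 4.31 and 4.34 at high density, and its accessory subunit POLE2 of 4.88, 4.97 and 5.05 against 3.95, 4.37 and 3.95. Their differences were −0.78 (SE 0.12) and −0.87 (SE 0.13), without overlap. All high density values lay under the background level, so these fold changes may be understated. The other subunits of polymerase epsilon, not among the listed genes, were above background and did not pass the FDR. POLE3 was at 7.41 and 7.65 (0.24, adjusted p = 0.156), without overlap, and POLE4 at 7.32 and 7.13 (−0.18, adjusted p = 0.408). Of polymerase delta, which extends the lagging strand, the catalytic POLD1 differed by −0.22 (95% interval −0.49 to 0.06) and POLD3 by −0.22 (−0.40 to −0.03), and neither passed the FDR. POLD2, the subunit that holds the enzyme together, was higher in every high density culture, at 6.88, 6.60 and 6.85 against 6.26, 6.35 and 6.41. Its difference of 0.43 (SE 0.10, adjusted p = 0.0192) was below the fold threshold.

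None of the 4 subunits of polymerase alpha and primase, which lay down the primers, was called. POLA1 and POLA2 passed the FDR at −0.39 and −0.45, while the primase subunits PRIM1 (−0.54, adjusted p = 0.0649) and PRIM2 (−0.17, adjusted p = 0.131) did not. PRIM1 varied within both densities (SD 0.25 and 0.27) and was called without normal density replicate 1 (−0.68) or high density replicate 2 (−0.68).

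PCNA, the sliding clamp and a common marker of proliferation, had signals of 7.81, 7.97 and 7.92 at normal and 7.55, 7.85 and 7.62 at high density. High density replicate 2 lay within the normal density range, and the difference of −0.23 (SE 0.10, adjusted p = 0.153) did not pass the FDR. Among the clamp loader subunits RFC4 and RFC5 passed it at −0.30 and −0.27, and RFC2 (−0.11) and RFC3 (−0.40, adjusted p = 0.0631) did not, so that 0 of the 5 clamp and loader genes measured were called. RPA1 and RPA2, which coat unwound DNA, passed the FDR at −0.48 and −0.51, and their partner RPA3 was at 7.80, 7.83 and 7.81 against 7.82, 7.99 and 7.86, a difference of 0.08 (95% interval −0.09 to 0.25). Of the enzymes that finish Okazaki fragments, the flap nuclease FEN1 (−0.56, SE 0.15, adjusted p = 0.0445) and DNA ligase LIG1 (−0.40, SE 0.10, adjusted p = 0.0333) passed the FDR below the fold threshold. FEN1 was called without normal density replicate 2 (−0.68) or high density replicate 1 (−0.67).

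In nucleotide supply, the fall of RRM2 had no counterpart of like size. RRM1, the large subunit of the same enzyme, had signals of 7.93, 8.02 and 7.96 at normal and 7.48, 7.71 and 7.53 at high density, and its difference of −0.39 (SE 0.08, adjusted p = 0.0159) passed the FDR only. Thymidylate synthase TYMS (−0.24, adjusted p = 0.0867) and thymidine kinase TK1, at 6.66, 6.69 and 6.74 against 6.79, 6.56 and 6.58, did not pass it, and the TK1 groups overlapped (95% interval −0.25 to 0.14). DUT, which removes dUTP, was read at 2.01 and 1.84, far below background, and cannot be judged from this transcript cluster. The subunits of chromatin assembly factor 1, which deposits histones on new DNA, CHAF1A (−0.26, adjusted p = 0.0808) and CHAF1B (−0.09, adjusted p = 0.481), did not pass the FDR. The high density mean of CHAF1A (4.46) was below background, so its difference may be understated.

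**Figure D3:**
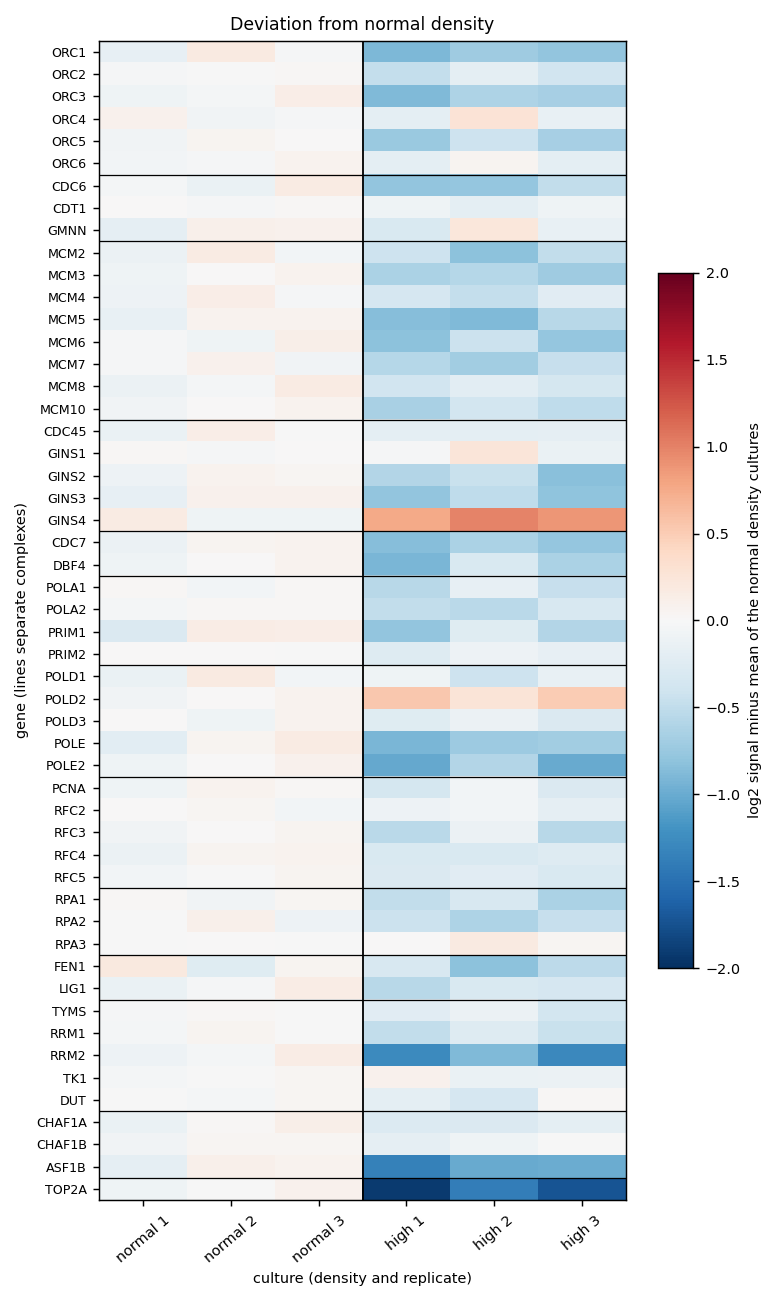
Log2 signal of each gene (rows, lines separate complexes) in each culture (columns) minus the mean of the normal density cultures. The high density columns are mostly blue, with medians of −0.45, −0.31 and −0.41 in replicates 1, 2 and 3, and the GINS4 and POLD2 rows are red.

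The cultures of a density were not alike. At high density the median deviation of the 52 genes from the normal density mean was −0.45 in replicate 1, −0.31 in replicate 2 and −0.41 in replicate 3, and over the 16 genes called lower it was −0.87, −0.62 and −0.77. Replicate 2 thus showed the smallest shift, and it was the highest of the high density cultures for 33 of the 52 genes (63.5%), where it was the highest for 45.3% of the transcript clusters above background. The MCM ring was split in this respect, since replicate 2 was the lowest high density culture for MCM2, MCM4, MCM5 and MCM7 and the highest for MCM3 and MCM6. At normal density, replicate 1 lay below the group mean for 42 of 52 genes (80.8%), against 53.4% of the transcript clusters above background. The SD was larger at high than at normal density for 41 of the 52 genes (78.8%), near the share among the transcript clusters above background (74.9%).

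Whether partner genes changed unequally was tested with the difference of their log2 signals within each culture, for 6 pairs, by two-sided exact permutation tests with Benjamini-Hochberg adjustment over the pairs. RRM2 minus RRM1 was −0.72, −0.73 and −0.50 at normal and −1.44, −1.29 and −1.49 at high density. The log ratio was lower at high density by −0.755 (pooled SD 0.12), without overlap (exact p = 0.1, adjusted 0.3). ORC1 minus ORC2 moved from −1.72 ± 0.16 to −2.17 ± 0.06 (SD, n = 3), also without overlap (exact p = 0.1, adjusted 0.3), and neither can pass a threshold of 0.05 in this design. The ORC1 means were below background at both densities, so the size of that log ratio is uncertain. In the other 4 pairs the densities overlapped. DBF4 minus CDC7 changed by 0.13 (exact p = 0.4), POLE2 minus POLE by −0.09 (exact p = 0.5), PRIM1 minus POLA1 by −0.15 (exact p = 0.5) and CDT1 minus GMNN by −0.05 (exact p = 0.9), each less than its pooled SD of 0.14, 0.18, 0.20 and 0.27. CDT1 and GMNN were below background at both densities and DBF4, POLE and POLE2 at high density, so these log ratios could not show whether the partners changed unequally.

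**Figure D4:**
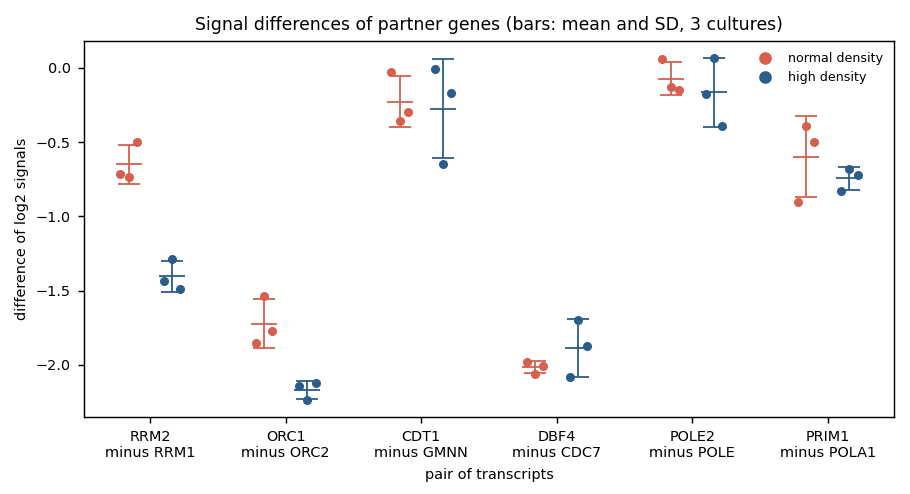
Difference of the log2 signals of 2 partner genes (y axis) in each culture, with mean and SD per density, for 6 pairs. The densities separate for RRM2 minus RRM1 and for ORC1 minus ORC2, where ORC1 was below background, and overlap for the other 4 pairs.

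Other genes of the same processes gave a mixed picture. Of 25 further fork and origin factors 3 were called lower and 0 higher, and 13 passed the FDR, all lower, with a median difference of −0.25. Of all transcript clusters 3.51% were called lower, 3.97% were called higher and 10.4% passed the FDR in the lower direction. The called genes were the PCNA-associated factor KIAA0101 (5.60 to 4.42, −1.18, below background at high density), the origin firing factor TICRR (4.47 to 3.69, −0.77, below background at both densities) and UHRF1, which couples DNA methylation to replication (5.68 to 4.93, −0.75). The 30 other nucleotide synthesis enzymes did not share a direction, with 1 called lower, 1 called higher and a median of −0.05. The share called lower, 3.33%, was near that of all transcript clusters. It was below the 5.86% of those above background, where 29 of the 30 enzymes lay. Of the 30 enzymes 11 passed the FDR, 6 lower and 5 higher, against 4171 of the 13077 transcript clusters above background. The dNTPase SAMHD1 fell from 6.79 to 6.01 (−0.78, adjusted p = 0.00184), and DHODH, the mitochondrial enzyme of pyrimidine synthesis, rose from 5.96 to 6.73 (0.77, adjusted p = 8.56e-04).

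Of 24 E2F and pocket protein regulators 3 were called lower and 1 higher, with a median of −0.22. Among the transcript clusters above background 5.86% were called lower and 6.95% higher. Of the 24 regulators, all above background, 9 passed the FDR, 8 lower and 1 higher, and 15 did not. Of the 13077 transcript clusters above background 4171 passed it and 8906 did not. E2F1, an activator of replication genes, fell from 5.88 ± 0.14 to 5.21 ± 0.05 (SD, n = 3; −0.67, adjusted p = 0.0022), MYBL2, an activator of the later cell cycle, from 5.84 to 5.07 (−0.76) and the S and G2 phase cyclin CCNA2 from 7.27 to 5.84 (−1.43). Of the E2F genes measured, E2F1 alone passed the FDR. E2F3 (−0.23), E2F6 (−0.34) and E2F8 (−0.33) did not pass it, nor did E2F2 (−0.0005), E2F4 (0.08) and E2F5 (0.16). The pocket protein RB1 (9.34 to 8.90, −0.45, adjusted p = 0.00365), CDK2 (−0.45), CCNE2 (−0.50) and TFDP2 (−0.34) passed the FDR lower, below the fold threshold. RBL2 (−0.12), TFDP1 (−0.14) and CCNE1 (−0.08) did not pass it. The CDK inhibitor CDKN1C (p57) rose by 3.10 (SE 0.14, adjusted p = 2.08e-05), from 4.87 ± 0.14 to 7.97 ± 0.25 (SD, n = 3). CDKN1A, also a CDK inhibitor, went the other way, from 9.62 to 9.17 (−0.45, adjusted p = 0.0397), below the fold threshold. CDKN1B differed by 0.23 and did not pass the FDR.

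Transcripts of the mitosis genes were lower throughout. Of 29 mitosis genes 24 were called lower and 0 higher (82.8%, against 30.8% of the replication genes), 29 of 29 passed the FDR, and their median difference was −1.24 against −0.40. Of the transcript clusters above background 5.86% were called lower. Both lists were chosen with earlier results of these data known, which may shape these shares. The mitosis genes with the largest falls were CENPA (7.11 ± 0.07 to 5.13 ± 0.68, SD, n = 3), the histone H3 variant of centromeres, NDC80 (5.98 to 4.11), a kinetochore subunit, and the kinetochore motor CENPE (6.55 to 4.96), with differences of −1.98, −1.87 and −1.59. The high density mean of NDC80 was below background, so its fold change may be understated. The difference between the lists was not tested, and only TOP2A of the replication genes lay beyond the median of the mitosis genes.

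**Figure D5:**
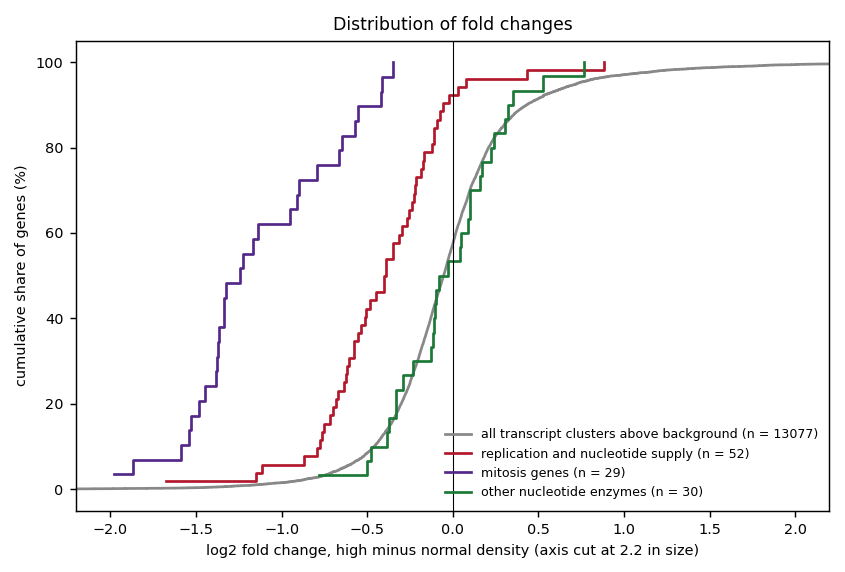
Cumulative share of genes (y axis, %) by log2 fold change (x axis) for the 52 replication and nucleotide supply genes, 29 mitosis genes, 30 other nucleotide enzymes and the 13077 transcript clusters above background. In that order the medians are −0.40, −1.24, −0.05 and −0.05.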

How the data were processed

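The deposited table holds RMA signals on the log2 scale, which the authors made from the scanned arrays in Affymetrix Expression Console (background reduction, normalization between arrays, gene-level summary). These values were used without further normalization. Genes were matched by exact symbol. For 36 of the 52 genes the accession was found in the RefSeq gene table (ARS-UCD2.0), each with the same symbol. The array's own genome build is not given in the sources used here, and no sequences or coordinates are shown, so the planned promoter motifs were not searched.

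Fits used limma 3.58.1 in R 4.3.3 (lmFit, eBayes, a single prior variance, no covariates) over all 26773 transcript clusters, and 0 columns belonged to other samples. The fit was tested on simulated data. Figures were drawn with matplotlib 3.10.9. The alternatives were the methods' t-test (their analysis of variance for 2 groups), limma's trend and robust options, weights per array, a block for the replicate number, arrays shifted to 1 median, quantile normalization applied again, removal of transcript clusters below background, and each culture omitted in turn.

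All listed genes could be named. Signals per culture are given for called genes, PCNA and, chosen after their values were seen, POLD2, RPA3, RRM1 and TK1. Of each other list at most the 3 called genes with the largest change were to be named. The E2F and pocket protein regulators and the cell markers named include others, given beyond that rule. POLE3 and POLE4, of the further fork and origin factors, were also named beyond that rule. The gene lists came from general knowledge, and the genes and lists were chosen with earlier results of these data known. Where preparations were not separate, p-values measure only the spread between these cultures.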

Additional observations from a re-analysis of the deposited data

How the results depend on the processing

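No gene changed direction after being called, under any of the 13 alternatives. The number called was 17, and it was between 14 (the methods' t-test) and 20 (median centring) in the alternatives that kept all cultures. It ranged from 16 to 19 when 1 culture was omitted, and 13 of the 17 genes were called in every alternative that tested them. ORC1 and CDC6 had no value under the filter at the background level. MCM6 and GINS2 lost their calls with the methods' t-test (adjusted p = 0.0569 and 0.0563), as did DBF4 (adjusted p = 0.121), and ORC5 lost it with the second quantile normalization (−0.57). MCM2, MCM7 and FEN1 were called with median centring and PRIM1 with array weights. The number of genes past the FDR at any fold moved more, from 32 to 20 with the methods' t-test (19 lower and 1 higher) and to 39 with array weights (37 lower and 2 higher), and it was between 20 and 37 with each culture left out (19 to 35 lower and 1 to 2 higher). It was 20 without normal density replicate 3. POLD2 passed the FDR with high density replicate 2 left out and with no other culture left out. The median over the genes stayed between −0.44 and −0.34.

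With the replicate number as a block 17 genes were called and 27 passed the FDR. Same-numbered cultures did not deviate together (correlations of 0.05, −0.05 and −0.04), so the numbers were not taken as pairs. The number of arrays and signals near background limit what could be measured. For 12 of the 52 genes the lower group mean, and for 6 both means, were at or below the background level, and a fold change there may understate a difference.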
